A study of Mus musculus with 10 samples.

Results

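Lipofibroblasts are the lipid-storing fibroblasts of the lung. The 9 genes described here mark them or handle fatty acids: Pparg, Plin2, Fabp4, Fabp5, Lpl, Scd1, Scd2, Acsl1 and Angptl4. They were chosen by name, with earlier results of these data known, and are 9 of 54532 genes in a table of read counts. All 9 passed the filter on low counts, which left 14360 genes to test. RNA was selected by its poly(A) tails and sequenced from primary mouse lung fibroblasts in culture, 5 libraries labelled wild type and 5 labelled as knockout of Mrc2, a receptor that takes up collagen for breakdown. All were grown at baseline, with no stimulus named, in DMEM with 10% fetal bovine serum and antibiotics. The labels give neither the strain nor the age of the mice, nor how the allele was made. Libraries are called biological replicates in their titles, which do not name separate animals, so p-values measure the spread between these samples, which may be technical.

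Fatty acids enter a cell after lipoprotein lipase frees them from circulating triglyceride, are carried in the cytosol by fatty acid binding proteins, are activated by acyl-CoA synthetases, and are stored as triglyceride in droplets coated by perilipins. PPAR gamma, the nuclear receptor encoded by Pparg, pairs with a retinoid X receptor, is activated by fatty acids and switches on many genes of this route. In the developing lung, lipofibroblasts lie beside alveolar type 2 cells and are known to pass lipid to them for surfactant. Several of the same genes are also known as genes of macrophages, adipocytes or endothelium.

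Totals ranged from 19603933 to 29944615 counts per library, and 3 counts corresponded to 0.0971 to 0.161 CPM (the count of a gene relative to the scaled total of its library). Mrc2 had a wild-type mean of 843 ± 176 CPM and a knockout mean of 242 ± 30.4 CPM (SD, n = 5 each), with no overlap, so all libraries matched their labels. Fibroblast markers were abundant in both groups, with a summed level of 10 markers of 19438 to 31888 CPM in wild type and 26159 to 50978 CPM in knockout. Leukocyte and macrophage markers were also present: all 19 passed the filter, and their sum ranged from 2972 to 14590.2 CPM in wild type and from 3763 to 8210 CPM in knockout, led by Lyz2, C1qb and C1qa. Adipocyte markers were low, at sums of 11.01 to 16.9 and 5.94 to 15.96 CPM, with Lep at 0 in every library and Adipoq at most 0.0998 CPM. Summed endothelial markers lay at 167 to 218 CPM and 149 to 165 CPM, led by Eng, and summed epithelial markers at 6.31 to 58.5 and 6.06 to 18.9 CPM. Summed mesothelial markers lay at 116 to 603 and 91.2 to 296 CPM. All 7 mesothelial markers lay below 0 in log2 fold change (knockout against wild type, median -0.89). Of them 1 had an unadjusted p under 0.05 (14.3%, beside 13.3% of all genes tested). Of 10 fibroblast markers 7 lay above 0, with a median of 0.36, and 4 were above 0 at an unadjusted p under 0.05 (40%). The endothelial sums did not overlap between genotypes and were lower in knockout. Yet 5 of 8 measured endothelial markers lay above 0, with a median of 0.24, and 2 lay below 0 at an unadjusted p under 0.05 (25%). The part of these markers in the values of the 9 genes was not tested.

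Plin2, whose protein coats lipid droplets, had the largest difference between genotypes of the 9 genes. Its promoter is shown for that reason. The sequence is that of RefSeq on GRCm38.p6, chr4:86670010-86670309, minus strand, from 250 bases before to 50 bases after the annotated start. Capitals mark the match to AGGTCA, the element that nuclear receptors of the PPAR kind bind in pairs.
Plin2: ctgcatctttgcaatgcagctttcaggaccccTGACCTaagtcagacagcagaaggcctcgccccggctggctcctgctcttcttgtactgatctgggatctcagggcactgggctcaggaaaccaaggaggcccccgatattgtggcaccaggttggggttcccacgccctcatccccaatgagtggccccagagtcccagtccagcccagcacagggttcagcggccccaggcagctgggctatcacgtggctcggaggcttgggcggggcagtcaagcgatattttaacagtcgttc
The element lies on the opposite strand, 218 bases before the start, and 16.3% of the 32851 promoters in the table hold it on either strand. A pair of AGGTCA in the same direction with 1 base between them was searched on both strands too. It is in 0.0396% of all promoters and matched none of the 6 promoter windows of Plin2, Pparg and Acsl1. AGGTCA alone, which the pair contains, matched in 2 of the 3 Pparg windows and in 0 of the 2 Acsl1 windows. The table matched these 3 of the 9 genes. Fabp4, Fabp5, Lpl, Scd1, Scd2 and Angptl4 were not matched. These matches describe letters in short windows only.

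None of the 9 genes passed the test between genotypes. In edgeR's quasi-likelihood test with Benjamini-Hochberg adjustment over all 14360 genes, 0.0139% of genes were called, and 0 of the 9 were. DESeq2, which called 1.69% of all genes, and limma-voom, which called 0.00696%, also called 0 of the 9. Without knockout replicate 5, edgeR called 1.39% of genes and again 0 of the 9. At an unadjusted p under 0.05 there was 1 of the 9 (11.1%) with edgeR, beside 13.3% of all genes tested. The values of the genotypes overlapped for all 9, where 2.05% of all genes had no overlap. The 9 log2 fold changes (knockout against wild type) ran from -0.75 to 0.44 with a median of -0.42, beside a median of -0.01 over all genes. Plin2, Fabp4, Fabp5, Lpl and Angptl4 lay below 0 and Pparg, Acsl1, Scd1 and Scd2 above it. Over all genes 48.4% lay above 0.

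**Figure D1:**
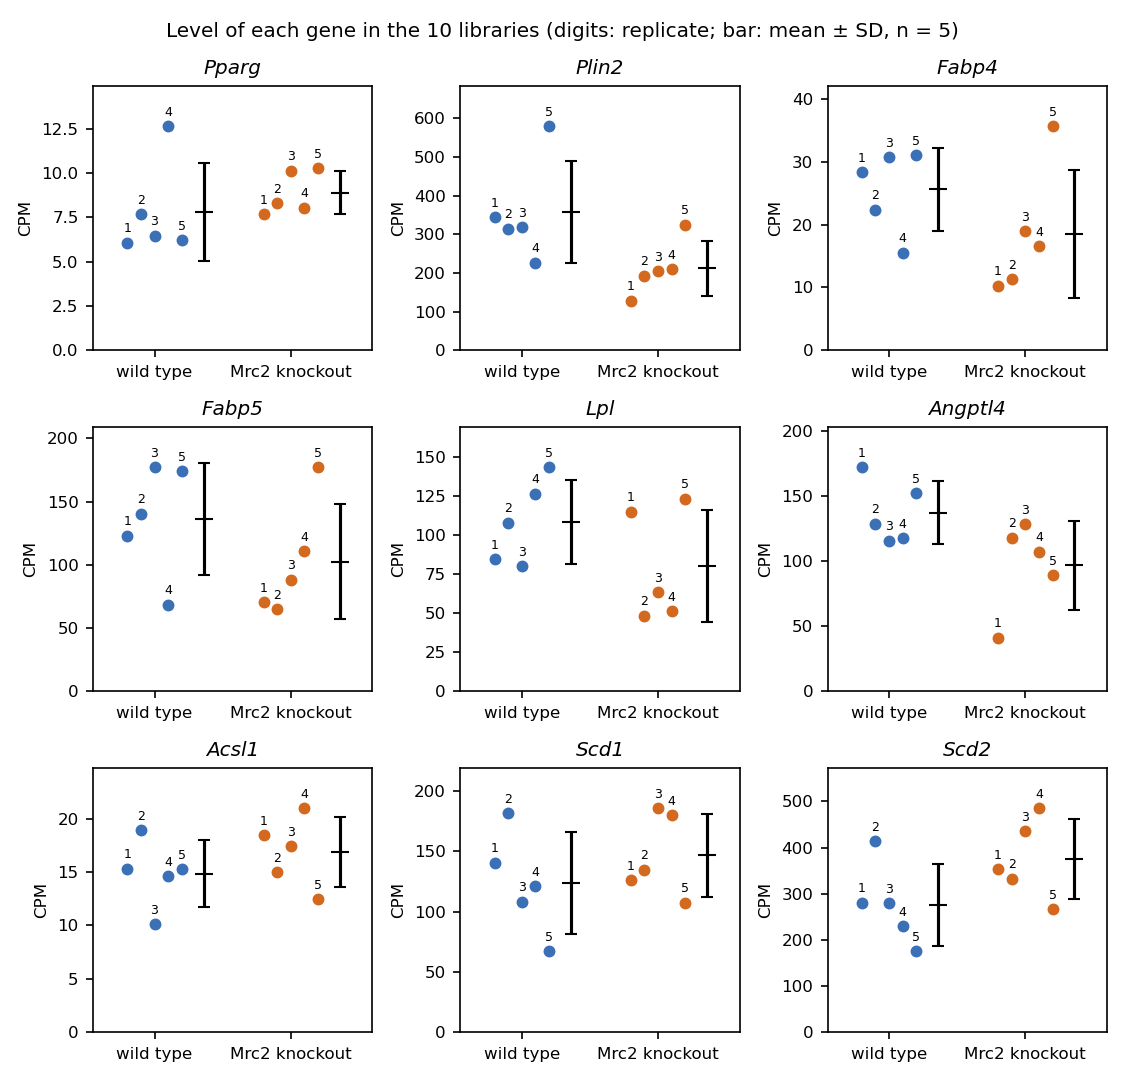
Level of each of the 9 genes in CPM (vertical axis, from 0) in the 5 wild-type and 5 Mrc2 knockout libraries, 1 point per library with its replicate number; black bars give the mean and SD. For Plin2 the knockout points sit at 128 to 325 CPM and the wild-type points at 227 to 579 CPM, and the groups overlap in every panel.

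**Figure D2:**
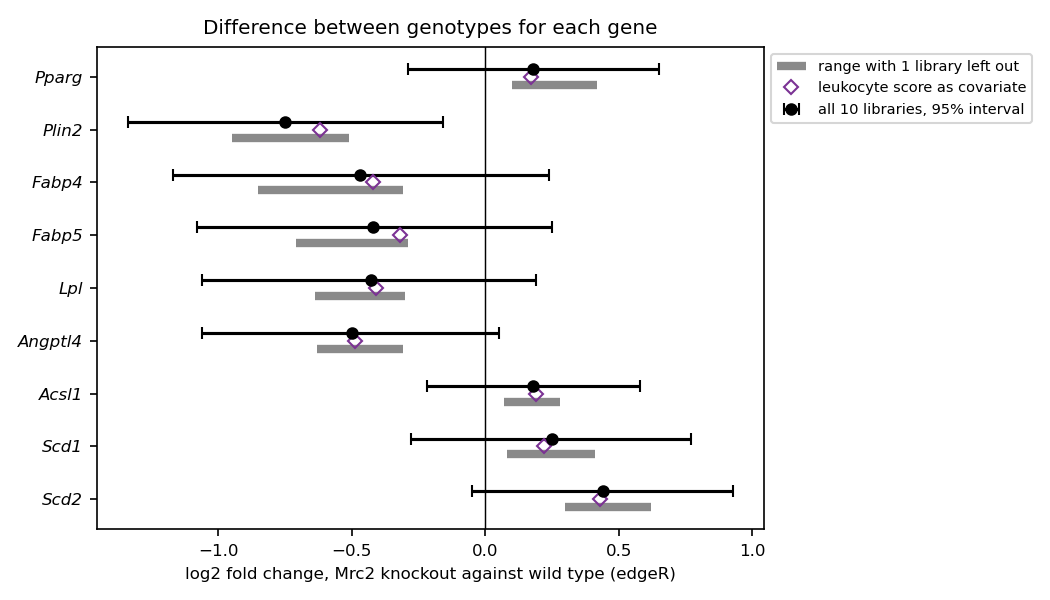
log2 fold change of each gene between Mrc2 knockout and wild type (horizontal axis), with its 95% interval from edgeR in black, the range when 1 library is left out in grey and the value with the leukocyte score as a covariate as an open diamond. The interval of Plin2, from -1.34 to -0.16, is the 1 of 9 that does not reach 0, before any adjustment for the number of genes.

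Pparg (ENSMUSG00000000440; mm10 chromosome 6, 115360951 to 115490399, plus strand), the regulator, was the least abundant of the 9 genes in CPM. Wild-type replicates 1 to 5 had 6.07, 7.67, 6.48, 12.6 and 6.23 CPM, and knockout replicates 1 to 5 had 7.67, 8.32, 10.1, 8.06 and 10.3 CPM. Wild-type replicate 4 was the highest of all 10, wild-type replicate 2 lay level with the lowest knockout library, and the other 3 wild-type libraries were lower than every knockout library. Between genotypes the log2 fold change was 0.18 (SE 0.22, 95% interval -0.29 to 0.65, edgeR adjusted p = 0.696). Without wild-type replicate 4 it was 0.42 (SE 0.16, edgeR adjusted p = 0.439), and without any other single library it lay between 0.10 and 0.23. Wild-type replicate 4 also had the highest summed mesothelial markers, at 603 CPM, and epithelial markers, at 58.5 CPM, of the 10 libraries, and their part in its Pparg level was not tested. The genes annotated within Pparg, Scd2 and Acsl1 had a count of 0 in every library, and no annotated gene overlaps the other 6.

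Plin2 (ENSMUSG00000028494; chromosome 4, 86648386 to 86670060, minus strand) was the most abundant of the 9 genes per deposited gene length in wild type. Its level was 344, 315, 319, 227 and 579 CPM in wild-type replicates 1 to 5 and 128, 193, 205, 210.3 and 325 CPM in knockout replicates 1 to 5. All 5 knockout libraries lay below the wild-type mean. Knockout replicate 5 was inside the range of wild type, while the other 4 were lower than every wild-type library. The means were 357 ± 132 and 212 ± 71.1 CPM (SD, n = 5 each). The log2 fold change of -0.75 had an SE of 0.27 and an edgeR adjusted p of 0.335 (unadjusted p = 0.0172). Without knockout replicate 5 the value was -0.95 (edgeR adjusted p = 0.0569), and without wild-type replicate 5, the library with the highest level, it was -0.51 (edgeR adjusted p = 0.530). Without wild-type replicate 5 the unadjusted p was 0.0550 in edgeR, and in that fit 0 of the 9 genes had an unadjusted p under 0.05.

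Both fatty acid binding protein genes had their lowest value in a knockout library. Both also had their highest in a knockout library, replicate 5, for Fabp5 about level with the highest wild-type value. Fabp4 (ENSMUSG00000062515; chromosome 3, 10204088 to 10208576, minus strand), the adipocyte form, was at 28.3, 22.4, 30.7, 15.5 and 31.1 CPM in wild-type replicates 1 to 5. In knockout replicates 1 to 5 it was at 10.3, 11.3, 18.98, 16.5 and 35.6 CPM. The highest of the 10 values was that of knockout replicate 5, and the lowest wild-type value, in replicate 4, fell among the other knockout libraries. The log2 fold change was -0.47 (SE 0.32, edgeR adjusted p = 0.511). It was -0.85 without knockout replicate 5 (edgeR adjusted p = 0.0636) and -0.31 without knockout replicate 1.

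Fabp5 (ENSMUSG00000027533; chromosome 3, 10012548 to 10016607, plus strand), the epidermal form, is known from many tissues. It was at 123, 140.5, 177, 68.7 and 174 CPM in wild-type replicates 1 to 5 and at 70.6, 65.2, 88.4, 111 and 177 CPM in knockout replicates 1 to 5. Again the low wild-type library was replicate 4 and the high knockout library replicate 5. A log2 fold change of -0.42 was found (SE 0.30, edgeR adjusted p = 0.532), with -0.71 without knockout replicate 5 (edgeR adjusted p = 0.108) and -0.29 without knockout replicate 2. The neighbouring genes Fabp5 and Fabp4 lie 187480 bases apart, with Pmp2 and Fabp9, members of the same family, among the 4 protein-coding genes between them. The log2 ratio of Fabp4 to Fabp5 counts within a library was -2.39 ± 0.24 in wild type and -2.52 ± 0.25 in knockout (SD, n = 5 each). The difference of -0.13 was smaller than the spread in either group (exact two-sided permutation p = 0.429, adjusted over 2 ratios p = 0.429). The smallest p this design allows is 0.00794.

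Lpl and Angptl4 act outside the cell. Lpl (ENSMUSG00000015568; chromosome 8, 68880491 to 68907448, plus strand) encodes lipoprotein lipase, and Angptl4 (ENSMUSG00000002289; chromosome 17, 33773750 to 33781575, minus strand) encodes a secreted inhibitor of that lipase. Lpl was at 84.3, 108, 79.9, 126 and 143 CPM in wild-type replicates 1 to 5 and at 115, 48.3, 63.3, 51.2 and 123 CPM in knockout replicates 1 to 5. Knockout libraries fell into separate levels, with replicates 1 and 5 inside the wild-type range and the other 3 below it. Its log2 fold change was -0.43 (SE 0.28, edgeR adjusted p = 0.495). Without knockout replicate 5 it was -0.64 (edgeR adjusted p = 0.141), and without knockout replicate 2 it was -0.30.

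Angptl4 was at 172, 129, 116, 118 and 153 CPM in wild-type replicates 1 to 5 and at 41.4, 118, 129, 108 and 89.4 CPM in knockout replicates 1 to 5. All 5 knockout libraries lay below the wild-type mean, knockout replicate 1 far below the rest, and knockout replicates 2 and 3 within the wild-type range. The means were 138 ± 24.3 and 97.1 ± 34.4 CPM (SD, n = 5 each). The log2 fold change of -0.50 had an SE of 0.25 and an edgeR adjusted p of 0.408. Without knockout replicate 1 the value was -0.31 (edgeR adjusted p = 0.587).

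Acsl1 (ENSMUSG00000018796; chromosome 8, 46471037 to 46536051, plus strand), which couples long-chain fatty acids to coenzyme A, was low throughout. It was at 15.3, 18.9, 10.1, 14.6 and 15.2 CPM in wild-type replicates 1 to 5 and at 18.4, 14.99, 17.4, 20.95 and 12.5 CPM in knockout replicates 1 to 5. The lowest value of each genotype came from wild-type replicate 3 and knockout replicate 5. The log2 fold change was 0.18 (SE 0.18, 95% interval -0.22 to 0.58, edgeR adjusted p = 0.649). Without wild-type replicate 3 it was 0.07, and without wild-type replicate 2 it was 0.28. It was 0.01 (edgeR adjusted p = 0.986) when the trend of each library with the deposited gene length was removed.

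Scd1 and Scd2 encode stearoyl-CoA desaturases, which place a double bond in saturated fatty acids made in the cell. Scd2 (ENSMUSG00000025203; chromosome 19, 44293676 to 44306864, plus strand) was at 281, 414, 279.7, 229 and 176 CPM in wild-type replicates 1 to 5 and at 353, 332, 435, 485 and 266 CPM in knockout replicates 1 to 5. Knockout replicate 5 was the 1 knockout library below the wild-type mean, and wild-type replicate 2 lay among the other knockout libraries. The means were 276 ± 88.3 and 374 ± 86.5 CPM (SD, n = 5 each). The log2 fold change of 0.44 had an SE of 0.23 and an edgeR adjusted p of 0.411.

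Scd1 (ENSMUSG00000037071; chromosome 19, 44394451 to 44407709, minus strand) was at 141, 182, 108, 121 and 67.5 CPM in wild-type replicates 1 to 5 and at 126, 135, 186, 179.96 and 108 CPM in knockout replicates 1 to 5. Wild-type replicate 5 was the lowest, and the genotypes otherwise covered the same span. Its log2 fold change was 0.25 (SE 0.24, edgeR adjusted p = 0.637), with 0.08 without wild-type replicate 5 (edgeR adjusted p = 0.890) and 0.41 without wild-type replicate 2 (edgeR adjusted p = 0.313). Scd2 and Scd1 lie 87586 bases apart, with Scd4 the 1 gene of the table between them. They are close relatives, and no label says how reads that fit both were handled, so the split of reads between them is less certain than their sum. The log2 ratio of Scd1 to Scd2 counts was -1.17 ± 0.21 in wild type and -1.35 ± 0.10 in knockout (SD, n = 5 each). The difference of -0.18 did not pass (exact two-sided permutation p = 0.151, adjusted over 2 ratios p = 0.302).

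Per length of gene, the order of the levels in wild type was Plin2, Scd2, Angptl4, Fabp5, Scd1, Lpl, Fabp4, Pparg and Acsl1. In CPM per kilobase of the deposited gene length, the wild-type means ran from 102 ± 37.6 for Plin2 to 1.42 ± 0.30 for Acsl1 (SD, n = 5). The gaps from Scd1 to Lpl, from Lpl to Fabp4 and from Pparg to Acsl1 held in 5 of 5 libraries of each genotype. Their wild-type ranges did not overlap. The order rests on the deposited lengths, which need not be those of the mRNAs. For Fabp4 the deposited length, 4489 bases, is that of its whole span on the chromosome. The order with mRNA lengths was not tested. The other neighbours in this order overlapped in range. Plin2 was above Scd2 in 5 of 5 wild-type libraries and in 1 of 5 knockout libraries, with means in knockout of 60.4 ± 20.2 for Plin2 and 68.6 ± 15.9 CPM per kilobase for Scd2 (SD, n = 5). Fabp5 was above Scd1 in 4 of 5 wild-type and 1 of 5 knockout libraries.

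Across the 10 libraries the genes varied in blocks. Correlations of log2 CPM were computed for all 36 pairs, and 4 passed a permutation test of Pearson's r adjusted over the 36. Scd1 and Scd2 varied together (r = 0.92, permutation p = 0.00033, adjusted p = 0.00774; rho = 0.88, permutation p = 0.00169, adjusted p = 0.0203). Without the 2 libraries farthest from the median of Scd1, r was 0.83, and with the genotype means removed it was 0.93. Fabp4 and Fabp5 varied together as well (r = 0.92, permutation p = 0.00043, adjusted p = 0.00774; rho = 0.93, permutation p = 0.00043, adjusted p = 0.0155), with r = 0.88 without the 2 farthest libraries and 0.91 with the genotype means removed. Plin2 followed Fabp4 (r = 0.87, permutation p = 0.00095, adjusted p = 0.0114; rho = 0.89, permutation p = 0.00124, adjusted p = 0.0203), with values of 0.89 and 0.83 in the same checks. Plin2 and Fabp5 had r = 0.81 (permutation p = 0.00396, adjusted p = 0.0356) and rho = 0.77 (permutation p = 0.0127, adjusted p = 0.0913), with r = 0.83 and 0.80 in those checks.

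No correlation of Pparg with another of the 9 genes passed the test. Its r was -0.42 with Plin2 (permutation p = 0.225, adjusted p = 0.467), -0.30 with Fabp4 (permutation p = 0.391, adjusted p = 0.547) and 0.04 with Lpl (permutation p = 0.909, adjusted p = 0.935). Spearman's rho was -0.45 with Plin2 (permutation p = 0.195, adjusted p = 0.467), -0.29 with Fabp4 (permutation p = 0.409, adjusted p = 0.614) and -0.02 with Lpl (permutation p = 0.953, adjusted p = 0.953). Without the 2 libraries farthest from the median of Pparg, r was -0.66, -0.61 and -0.55, and none of these was tested. With Plin2, Fabp4, Fabp5 and Angptl4 the pooled value mixed opposite signs, negative over the 5 wild-type libraries and positive over the 5 knockout libraries. It thus describes neither genotype, and 5 libraries are too few for a correlation of their own. Among the 14359 other genes tested, those with the highest r to Pparg over the 10 libraries were Fzd6, a Wnt receptor gene (0.87), Ccnk, which encodes cyclin K (0.84), and Fhdc1, a formin-domain gene (0.84). They were picked as the highest of many and are given as a description.

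**Figure D3:**
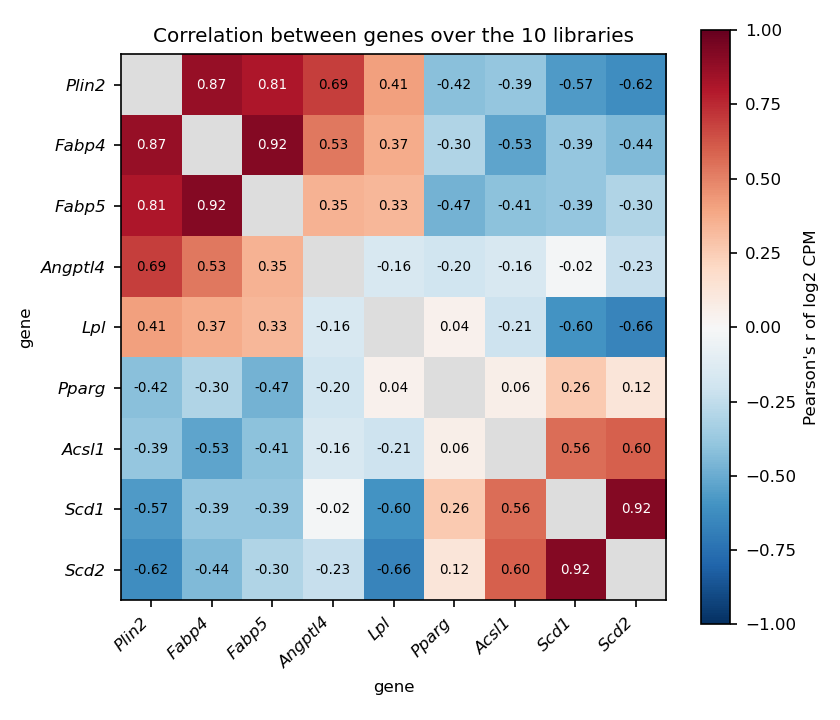
Pearson's r of log2 CPM over the 10 libraries for each of the 36 pairs of genes, from -1 in blue to 1 in red. Plin2, Fabp4 and Fabp5 form a block with r of 0.81 to 0.92, and Scd1 and Scd2 another with 0.92.

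Fabp5 was higher in libraries with more leukocyte marker expression. Plin2 and Fabp4 had the same sign but did not pass with Pearson's r after adjustment. For the leukocyte score, each of the 19 markers was centred over the 10 libraries on the log2 CPM scale and the markers were averaged. The score ranged from -0.84 to 1.10 in wild type and from -0.45 to 0.46 in knockout. The correlation with this score was r = 0.82 for Fabp5 (permutation p = 0.00418, adjusted p = 0.0251; rho = 0.82, permutation p = 0.00558, adjusted p = 0.0402). It was r = 0.72 for Plin2 (permutation p = 0.0179, adjusted p = 0.0538; rho = 0.62, permutation p = 0.0611, adjusted p = 0.122) and r = 0.64 for Fabp4 (permutation p = 0.0475, adjusted p = 0.0950; rho = 0.79, permutation p = 0.00894, adjusted p = 0.0402). The adjustment covers 18 relations, of the 9 genes with the leukocyte score and with the length slope described next. Without the 2 libraries farthest from the median score, r was 0.79 for Fabp5, 0.57 for Plin2 and 0.60 for Fabp4. With the genotype means removed it was 0.84, 0.83 and 0.65.

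Lpl, also known from macrophages, had r = 0.26 with the leukocyte score (permutation p = 0.467, adjusted p = 0.6; rho = 0.20, permutation p = 0.586, adjusted p = 0.811). Lyz2, the most abundant leukocyte marker, averaged 5297 ± 2910 CPM in the wild-type and 3454 ± 1317 CPM in the knockout libraries (SD, n = 5 each). Its log2 fold change was -0.62 (SE 0.39, edgeR adjusted p = 0.480). Of the 19 markers 16 lay below 0, with a median log2 fold change of -0.21. With the leukocyte score as a covariate the log2 fold change was -0.62 for Plin2 (SE 0.17, edgeR adjusted p = 0.207), -0.42 for Fabp4 (SE 0.26, adjusted p = 0.486) and -0.32 for Fabp5 (SE 0.19, adjusted p = 0.476). In such bulk samples fewer cells of a type and less RNA per cell cannot be told apart.

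**Figure D4:**
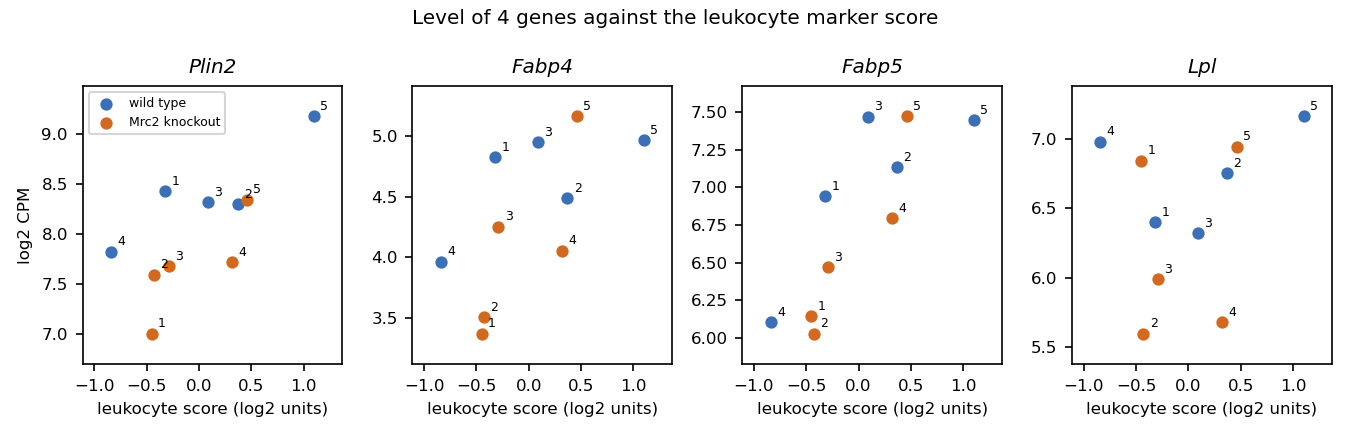
Level of Plin2, Fabp4, Fabp5 and Lpl (log2 CPM, vertical axes) against the leukocyte marker score of each library (log2 units, horizontal axes), with the replicate number beside each point. Fabp5 runs along the score in both genotypes (r = 0.82), and for Lpl r is 0.26.

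Fabp4 and Acsl1 also moved with the length slope, the change in log2 CPM of a library, relative to the mean of all, per doubling of gene length. It ran from -0.153 to 0.0879 in wild type and from -0.160 in replicate 5 to 0.143 in knockout. Fabp4 was lower where long genes were higher (r = -0.85, permutation p = 0.00347, adjusted p = 0.0251; rho = -0.79, permutation p = 0.00869, adjusted p = 0.0402), with r = -0.76 without the 2 farthest libraries and -0.81 with genotype means removed. Acsl1 had the opposite sign (r = 0.81, permutation p = 0.00276, adjusted p = 0.0251; rho = 0.71, permutation p = 0.0259, adjusted p = 0.0677), with 0.59 and 0.79 in the same checks. Plin2 had r = -0.73 (permutation p = 0.0141, adjusted p = 0.0538; rho = -0.81, permutation p = 0.00701, adjusted p = 0.0402), with -0.84 and -0.66. Fabp5 was close to it (r = -0.75, permutation p = 0.0176, adjusted p = 0.0538; rho = -0.70, permutation p = 0.0305, adjusted p = 0.0687), with -0.56 and -0.70. Scd1 and Scd2 had the sign of Acsl1 and did not pass. For Scd1 r was 0.64 (permutation p = 0.0423, adjusted p = 0.0950) and rho 0.71 (permutation p = 0.0263, adjusted p = 0.0677), with 0.64 and 0.58 in those checks. For Scd2 r was 0.67 (permutation p = 0.0347, adjusted p = 0.0892) and rho 0.71 (permutation p = 0.0259, adjusted p = 0.0677), with 0.78 and 0.58. With the trend on gene length removed as an offset, the log2 fold changes of Plin2, Fabp4, Fabp5 and Lpl were -0.71, -0.47, -0.39 and -0.56 (edgeR adjusted p of 0.284, 0.521, 0.544 and 0.454). Slope and offset both used the deposited lengths, and that of Fabp4 is its whole span on the chromosome. Values with mRNA lengths were not tested.

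Around these 9 genes, 8 lists of related genes, also chosen with earlier results of these data known, were examined with the same test. Of their 122 measured genes 0 passed with edgeR over all genes tested, and 21 had an unadjusted p under 0.05 (17.2%, beside 13.3% of all genes). With limma-voom 0 passed, and with DESeq2 7 did, among them Npnt and Med1 with values above 0, and Fabp3, Fgf10 and Pnpla2 with values below 0. Each list is described by its count and median, beside 48.4% of genes above 0 and a median of -0.01 over all genes.

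Partners and co-regulators of PPAR receptors had 12 of 18 measured genes above 0 and a median of 0.19, with 4 at an unadjusted p under 0.05 (22.2%, beside 13.3% of all genes), all above 0. Without knockout replicate 3 the median was 0.07, and without wild-type replicate 3 it was 0.12. Ncor1, which encodes a co-repressor of nuclear receptors, was at 0.54 on the log2 scale of differences (SE 0.23, edgeR adjusted p = 0.356). Med1, a Mediator subunit that binds nuclear receptors, was at 0.41 (SE 0.11, edgeR adjusted p = 0.234) and did not overlap between genotypes.

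Other known PPAR targets had 6 of 17 measured genes above 0 and a median of -0.12, within a range of -0.84 to 1.48. Of these genes 3 below 0 and 1 above had an unadjusted p under 0.05 (23.5% in all, beside 13.3%). The sign of this median turned with no filter on low counts, where it was 0.13. It was -0.06 without wild-type replicate 5 and likewise without knockout replicate 1. Fabp3, the heart form of the binding proteins, averaged 17.4 ± 2.44 CPM in the wild-type and 9.69 ± 2.88 CPM in the knockout libraries without overlap (SD, n = 5 each). Its log2 fold change was -0.84 (SE 0.20, edgeR adjusted p = 0.231). Pdk4, a kinase that turns cells from glucose towards fatty acids, had -0.65 (SE 0.19, edgeR adjusted p = 0.258).

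Genes of triglyceride synthesis and lipid droplets had 15 of 19 measured members below 0 and a median of -0.22, with 5 below and 1 above at an unadjusted p under 0.05 (31.6% in all, beside 13.3%). Pnpla2, the lipase that starts the breakdown of stored triglyceride, averaged 49.3 ± 2.69 CPM in the wild-type and 38.4 ± 3.80 CPM in the knockout libraries without overlap (SD, n = 5 each). Its log2 fold change was -0.36 (SE 0.10, edgeR adjusted p = 0.241). Bscl2, which encodes seipin of droplet assembly, had -0.30 (SE 0.11, edgeR adjusted p = 0.335) and Mgll, monoglyceride lipase, -0.39 (SE 0.16, adjusted p = 0.352).

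Fatty acid oxidation had 19 of 25 measured members below 0 and a median of -0.12, with 3 at an unadjusted p under 0.05 (12%). Without knockout replicate 2 the median was -0.07. Hadhb, a subunit of the mitochondrial trifunctional protein, had -0.31 (SE 0.09, edgeR adjusted p = 0.282), and Acaa1a, a peroxisomal thiolase, -0.38 (SE 0.17, adjusted p = 0.373). Synthesis and desaturation genes lay evenly, with 11 of 20 above 0, a median of 0.02 and 1 at an unadjusted p under 0.05 (5%). Acaca, acetyl-CoA carboxylase, had 0.28 (SE 0.12, edgeR adjusted p = 0.355), Elovl6, an elongase, 0.37 (SE 0.19, adjusted p = 0.411) and Tecr, an enzyme of elongation, -0.27 (SE 0.14, adjusted p = 0.413). Uptake and activation genes had 9 of 16 above 0 and a median of 0.06, and Fabp3 was the 1 with an unadjusted p under 0.05. Vldlr, a lipoprotein receptor, had 0.41 (SE 0.22, edgeR adjusted p = 0.428) and Acbd3, which binds acyl-CoA, 0.23 (SE 0.12, adjusted p = 0.407).

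Other genes of lung lipofibroblasts had 7 of 9 measured members above 0 and a median of 0.41, with 3 at an unadjusted p under 0.05 (33.3%). Fgf10, a growth factor of lipofibroblast precursors, averaged 39.7 ± 21.5 CPM in the wild-type and 17.1 ± 3.30 CPM in the knockout libraries (SD, n = 5 each). Its log2 fold change was -1.22 (SE 0.35, edgeR adjusted p = 0.258). Its wild-type libraries spread from 15.6 to 66.9 CPM, and 2 of them lay among the knockout libraries. Npnt, a matrix protein, had 1.05 (SE 0.17, edgeR adjusted p = 0.141), and Pth1r, the receptor for the parathyroid hormone-related protein that sustains lipofibroblasts, 0.63 (SE 0.25, adjusted p = 0.348). Myofibroblast genes had 9 of 10 above 0 and a median of 0.29, with 2 at an unadjusted p under 0.05 (20%). This median was 0.13 without wild-type replicate 2, 0.15 without knockout replicate 5 and 0.51 without wild-type replicate 3. Myh11, smooth muscle myosin, had 0.82 (SE 0.33, edgeR adjusted p = 0.350), Lmod1, leiomodin of smooth muscle, 0.50 (SE 0.22, adjusted p = 0.363) and Tpm1, tropomyosin, 0.32 (SE 0.20, adjusted p = 0.485).

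**Figure D5:**
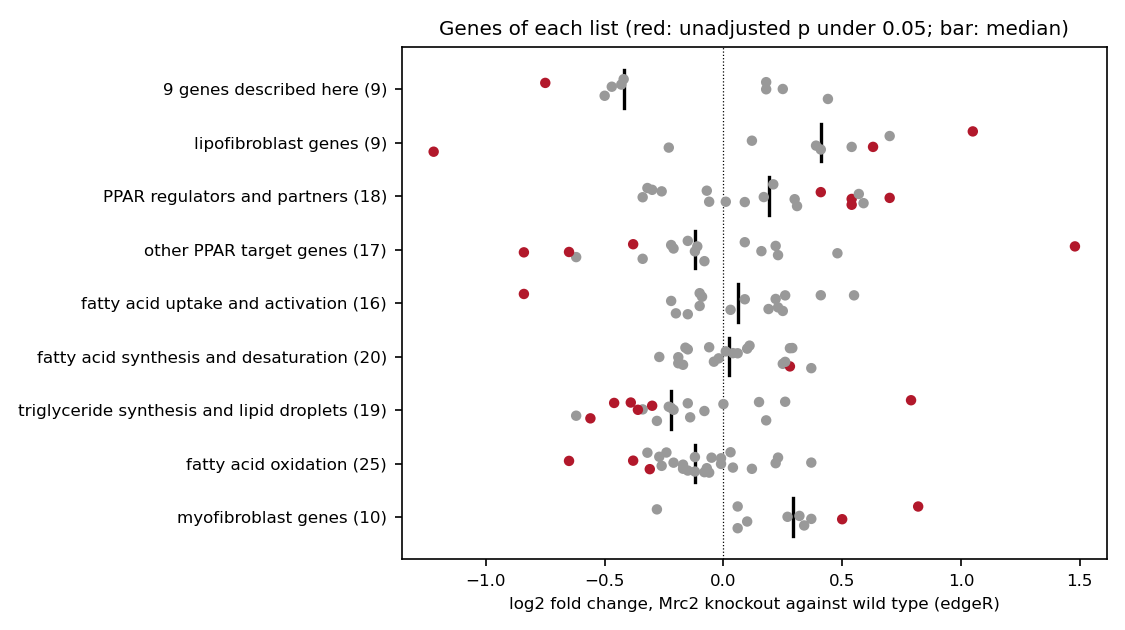
log2 fold change between Mrc2 knockout and wild type (horizontal axis) of the measured genes of each list, 1 point per gene, red where the unadjusted edgeR p is under 0.05, with the median as a black bar and the number of genes in brackets. The medians run from -0.42 for the 9 genes described here to 0.41 for other lipofibroblast genes.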

How the data were processed

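The deposited table held raw read counts per Ensembl gene for 10 libraries of mouse lung fibroblasts, with gene coordinates and lengths in bases. STAR 2.5, HTSeq 0.6.1, DESeq2 2 and the mm10 build are listed without roles in the submitters' processing notes. Strand setting and annotation release were not given in the sources used. No pair of libraries agreed within sampling noise (lowest chi-square per degree of freedom 19.2).

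Genes were filtered with filterByExpr and tested with edgeR 4.0.16 in R 4.3.3 (quasi-likelihood F test, TMM, no covariate, adjusted p under 0.05). DESeq2 1.42.0 and limma 3.58.1 were alternatives, with other scalings, filters, a replicate block, a gene length offset, a leukocyte score covariate and each library left out. CPM values were relative to library sizes after TMM, with a prior count of 2 before taking log2. Ratios had 0.5 added to each count. Correlations used 100000 permutations with scipy 1.17.1. Relations with the leukocyte score and length slope were added after the data were seen. On simulated counts of 14170 genes for this comparison, the same code called 4% of genes changed by 1.5-fold and 54% by 2-fold. For 4-fold and 8-fold changes it called 92% and 98%. Of 127 calls 7 were false. Each gene was drawn independently in the simulation, without variation that genes of a library share, so these shares need not hold for the real counts. Floors of 3 counts cover counting error only.

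The genes and lists were chosen with earlier results of these data known. Named were the 9 genes, Mrc2, up to 3 genes with the smallest p in each list, the 3 most abundant genes of a marker list and the 3 genes most like Pparg. Some genes that this rule takes are not reported here.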

Additional observations from a re-analysis of the deposited data

Results flagged for a closer look

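Pparg in wild-type replicate 4, at 12.64 CPM, lay far above the other 4 wild-type libraries, of which the next was at 7.67 CPM. The same library had the highest summed mesothelial (603 CPM) and epithelial (58.5 CPM) markers of all 10 and the lowest leukocyte score (-0.84), and the part of these in its Pparg level was not tested. Acaca in wild-type replicate 2, at 44.53 CPM, stood above the others in the same way, the next being at 36.6 CPM. Both were picked up by the gap to the nearest library relative to the range of the 5. Of 70 groups of 5 values examined 2 were picked up, and chance alone picks up about 1 in 20.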

How the results depend on the processing

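For each of the 9 genes the direction held in all 19 alternatives and 0 calls appeared in any. The number of genes called among all tested was 2, against 243 with DESeq2, 1 with limma-voom, 1 with the gene length offset and 0 with the replicate block, and from 1 to 203 with a library left out, the 203 without knockout replicate 5. The cause was not tested. Mrc2 had a log2 fold change of -1.78 with the replicate block (edgeR adjusted p = 0.0542). Same-numbered libraries did not deviate together (correlations of -0.24 to 0.38), so the numbers were not taken as pairs. Under the block the Scd1 to Scd2 difference was -0.18 (exact two-sided permutation p = 0.375) and that of Fabp4 to Fabp5 -0.13 (p = 0.562), where the smallest p possible by exact permutation is 0.0625. With knockout replicate 5 left out, 5 of the 9 genes had an unadjusted p under 0.05 in edgeR (Fabp4, Fabp5, Lpl, Plin2 and Scd2), beside 29.5% of all genes, and with wild-type replicate 5 left out 0 had, beside 9.35%. The median of other PPAR targets turned from -0.12 to 0.13 with no filter on low counts, where genes near 0 counts enter the list. The medians of synthesis genes (-0.04 to 0.07) and uptake genes (-0.01 to 0.16) changed sign among the alternatives. Changes of 2-fold or less could be missed at this spread.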
